A study of Homo sapiens with 12 samples.

Results

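The genes described here encode the machinery that licenses replication origins and runs the replication fork, and 49 of them were found among the 26475 gene symbols of the deposited count table, taken by symbol from a list of such genes that was drawn up with earlier results of these data known. The rule for membership used no measured value. RNA was sequenced from 2 human ovarian cancer cell lines, PA-1, derived from a teratocarcinoma, and SK-OV-3, derived from an adenocarcinoma. Each line was treated with the vehicle DMSO or with 5 µM BAY-850, a chemical probe directed at the acetyl-lysine reading bromodomain in the chromatin protein ATAD2, and was collected after 48 h. The 4 groups held 3 biological replicates each, giving 12 libraries. Each line is a single established line, and PA-1 was grown in DMEM and SK-OV-3 in RPMI, so line and medium cannot be told apart. A difference between the lines under DMSO is therefore a difference between these cultures.

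Replication begins when the origin recognition complex (ORC), CDC6 and CDT1 load the ring-shaped MCM2-7 helicase onto DNA in G1 phase, a step called licensing that geminin (GMNN) blocks by binding CDT1. On entry into S phase the kinase CDC7 with its activator DBF4, together with cyclin-dependent kinases, promotes the joining of CDC45 and the GINS complex to MCM2-7, which forms the active helicase known as CMG. Polymerase alpha with primase lays down primers, polymerase epsilon and polymerase delta extend the leading and lagging strands, and the sliding clamp PCNA, placed by replication factor C (RFC), holds the polymerases on DNA. Many genes of this machinery are transcribed under the control of E2F factors at the G1/S transition and are known as markers of proliferating cells. In bulk RNA, fewer cells in S phase and less RNA of a gene per cell cannot be told apart.

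To show what the promoters of these genes look like, RefSeq promoter windows of 250 bases before to 50 after the gene start were read on GRCh38.p14, with an entry for 43 of the 49 genes. One of 4 words of the E2F consensus (TTTCCCGC, TTTCGCGC, TTTGCCGC or TTTGGCGC, on either strand) was present in 19 of these 43 promoters (44.2%), against 1164 of all 35116 promoters (3.31%) and 569 of the 11147 promoters of genes tested in SK-OV-3 (5.11%). TTTGGCGC and the reverse complement of TTTCGCGC can overlap, as they do in MCM6. The CCAAT box was present in 23 of 43 (53.5%) against 34.6% of all promoters, and the cell cycle word TTTGAA in 2 of 43 (4.65%) against 15.2%. Among the promoters of genes tested in SK-OV-3 these shares were 36.2% for CCAAT and 9.91% for TTTGAA. A match describes letters in a window and is not a measured site. The stretches below run from 180 bases before the start to 10 bases from it on, and belong to the genes with the largest decreases in SK-OV-3 from 3 different complexes (RRM2, POLE2 and MCM6) and to the gene with the largest increase in PA-1 (POLE). Capitals mark E2F words and CCAAT boxes, on either strand.
RRM2, chr2:10122559-10122748, plus strand: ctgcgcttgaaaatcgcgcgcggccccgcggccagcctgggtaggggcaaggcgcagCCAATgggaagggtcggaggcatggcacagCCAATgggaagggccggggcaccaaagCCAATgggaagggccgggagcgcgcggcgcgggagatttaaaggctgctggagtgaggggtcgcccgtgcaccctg
POLE2, chr14:49688205-49688394, minus strand: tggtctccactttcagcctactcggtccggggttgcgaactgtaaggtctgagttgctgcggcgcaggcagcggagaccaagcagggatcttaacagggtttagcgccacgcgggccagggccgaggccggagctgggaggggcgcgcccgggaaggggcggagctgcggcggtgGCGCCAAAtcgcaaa
MCM6, chr2:135876434-135876623, minus strand: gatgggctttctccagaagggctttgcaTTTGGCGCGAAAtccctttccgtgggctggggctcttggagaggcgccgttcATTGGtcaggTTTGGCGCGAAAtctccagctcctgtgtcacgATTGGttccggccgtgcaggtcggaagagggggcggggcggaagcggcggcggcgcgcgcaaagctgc
POLE, chr12:132687333-132687522, minus strand: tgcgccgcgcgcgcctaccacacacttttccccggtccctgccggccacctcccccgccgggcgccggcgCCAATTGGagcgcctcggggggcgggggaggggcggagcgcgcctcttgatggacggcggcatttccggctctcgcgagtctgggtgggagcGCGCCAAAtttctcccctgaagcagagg
The MCM6 stretch held 4 E2F words in 2 overlapping pairs, which began 152, 148, 90 and 86 bases before the start, and 2 CCAAT boxes. The POLE2 and POLE stretches each held 1 E2F word, beginning 5 and 18 bases before the start. The RRM2 stretch held none of the E2F words and 3 CCAAT boxes, 123, 93 and 66 bases before the start.

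Library totals ranged from 34544481 to 51840249 counts and ribosomal RNA genes took 7.94% to 16.9% of them. The library labelled SK-OV-3 BAY-850 replicate 3 stood apart, with the highest total and 15629 genes with a count against 17425 to 18414 in the other libraries, so counts of changed genes are also given without it. The line labels were checked against markers. LIN28A averaged 756 CPM (counts scaled to 1000000 a library) in PA-1 and 0.102 in SK-OV-3 under DMSO, and ERBB2 averaged 61.3 and 2417. Of 8 embryonal markers, TDGF1 (0.066 CPM) and DPPA4 (1.81 CPM) were near 0 in PA-1 too, and of 6 epithelial markers KRT8 and KRT18 were at like levels in both lines.

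The question of the design is how BAY-850 changes RNA levels in each line, and the replication genes fell widely in SK-OV-3, while in PA-1 most did not pass the test and those that rose included 4 of the 6 MCM2-7 helicase genes. In SK-OV-3, 29 of the 49 genes were lower with BAY-850 at an adjusted p under 0.05 and 0 were higher, with edgeR's quasi-likelihood test over all 15348 genes tested. DESeq2 called 30 lower and 0 higher and limma-voom 29 and 0, and 1 gene (ORC4) was higher at an unadjusted p under 0.05. Over all genes tested in SK-OV-3, 9.56% were called lower and 10.8% higher. In PA-1, 8 of the 49 were higher and 2 were lower, where 4.65% and 2.48% of the 15212 genes tested were called higher and lower. DESeq2 called 9 higher and 2 lower in PA-1, and limma-voom 8 and 2. At an unadjusted p under 0.05 in either direction were 42 of the 49 genes in SK-OV-3, against 5116 of all 15348 tested. In PA-1 the same count was 21 of 49, against 3618 of all 15212. Counts at an unadjusted p given below for a complex are to be read beside these. The median log2 fold change of the 49 genes was -0.40 in SK-OV-3 (range -0.84 to 0.16) and 0.029 in PA-1 (range -0.28 to 0.41), and the medians over all genes tested were -0.0091 and -0.0019. Without SK-OV-3 BAY-850 replicate 3, 37 genes were called lower in SK-OV-3 and 0 higher, and the median was -0.41. The genes called lower only then were ORC1, ORC3, ORC6, GINS3, CDC7, RFC2, PRIM1 and RPA2, when set against the fit of all 6 SK-OV-3 libraries.

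The decrease in SK-OV-3 was present in each treated library. The median log2 deviation of the 49 genes from the DMSO mean was -0.39, -0.38 and -0.38 in the 3 BAY-850 libraries, with 47 of the 49 genes below the DMSO mean in each, against 0.027, -0.00025 and -0.017 in the DMSO libraries. The 49 genes together took 0.258%, 0.278% and 0.264% of all counts under DMSO and 0.204%, 0.206% and 0.200% under BAY-850. In PA-1 these shares were 0.281%, 0.286% and 0.297% under DMSO and 0.297%, 0.306% and 0.282% under BAY-850, which overlap. The 3 BAY-850 libraries lay below all 3 DMSO libraries for 42 of the 49 genes in SK-OV-3 (85.7%), against 20.5% of all genes tested, and above them for 1 gene, ORC4 (2.04%), against 18.1%. In PA-1 they lay above for 15 of 49 (30.6%) and below for 4 (8.16%), where 14.1% and 13.3% of all genes tested did so.

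**Figure D1:**
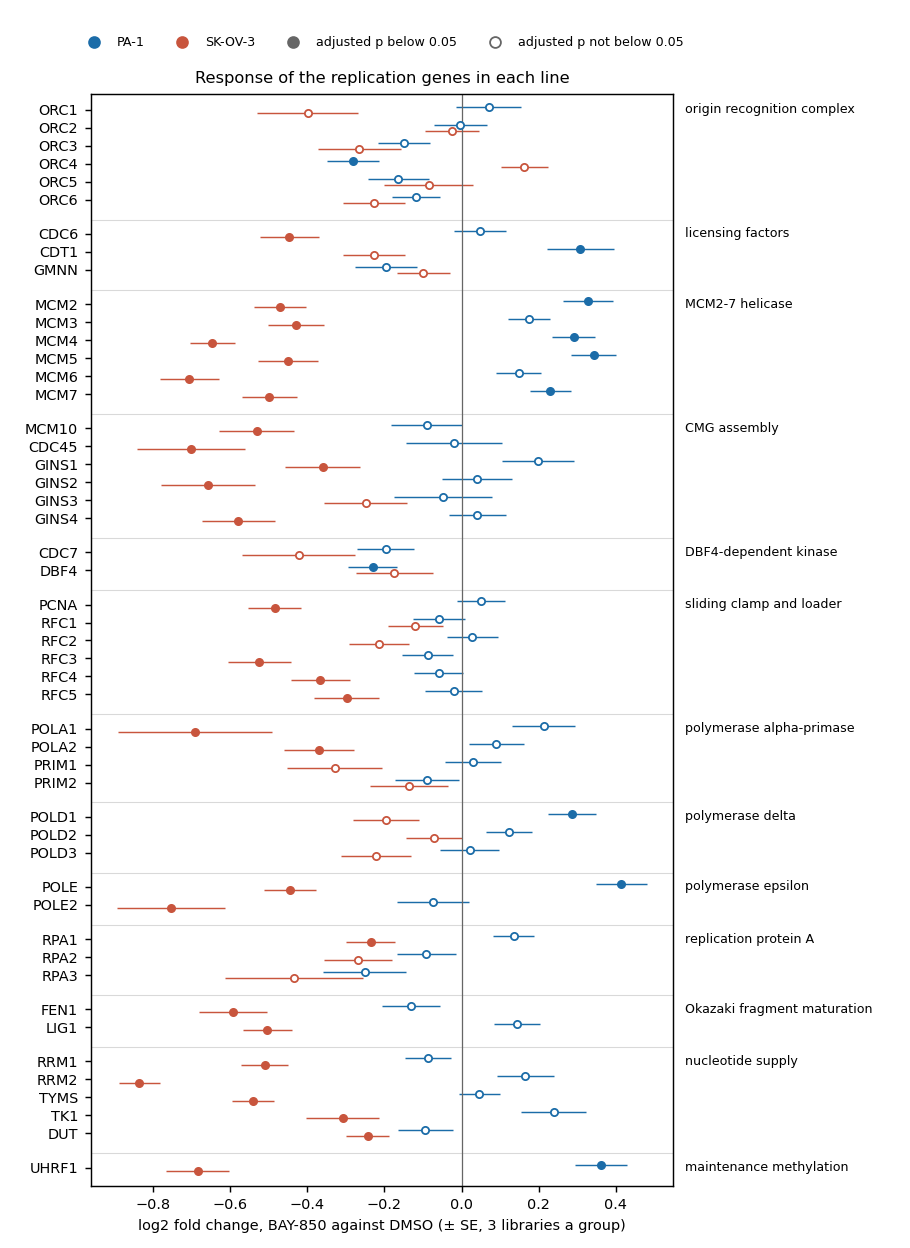
Log2 fold change of each of the 49 genes, BAY-850 against DMSO, in PA-1 (blue) and SK-OV-3 (red), on the x axis with its SE from 3 libraries a group, and genes by complex on the y axis; filled points passed an adjusted p of 0.05. In SK-OV-3, 48 of the 49 points lie below 0, and in PA-1 22 lie below 0, with the MCM2-7 genes, POLE, POLD1 and UHRF1 to the right.

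A test of the difference itself, the line by treatment interaction in a fit of all 12 libraries, gave 30 of the 49 genes whose response was lower in SK-OV-3 than in PA-1 and 1, ORC4, whose response was higher. Over the 16830 genes tested in that fit, 7.77% and 6.70% were called in these directions. The median difference of response was -0.47 on the log2 scale for the 49 genes and -0.020 for all genes tested. In all, 6 genes were called in both lines in opposite directions, namely MCM2, MCM4, MCM5, MCM7, POLE and UHRF1.

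The MCM2-7 helicase genes lay on the same side of 0 as a whole complex in each line, although not all passed in PA-1. All 6 fell in SK-OV-3, with a median log2 fold change of -0.49. In PA-1 all 6 lay above 0, with a median of 0.26. Each had an unadjusted p under 0.05 there, as had 3618 of all 15212 genes tested, in either direction. MCM2, MCM4, MCM5 and MCM7, 4 of the 6, passed the adjusted threshold in PA-1, and of these only MCM5 passed in every setting. DESeq2 called 5 of the 6 in PA-1, with MCM3 added, and limma-voom 4. The interaction was called for all 6, with a median difference of -0.81.

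MCM4, a subunit of the catalytic core, had 96.8, 91.8 and 94.1 CPM in the PA-1 DMSO libraries and 113, 116 and 117 with BAY-850, an increase of 0.29 ± 0.055 (SE; log2 scale, adjusted p = 0.0061). In SK-OV-3 it had 101, 103 and 105 CPM under DMSO and 62.2, 67.98 and 65.3 with BAY-850, a change of -0.65 ± 0.058 (adjusted p = 2.0e-05), or 36.1% less RNA. The groups did not overlap in either line. The difference between the responses was -0.95 ± 0.072 (adjusted p = 6.2e-07).

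MCM5 (chr22:35400063-35425430 on GRCh38), which forms the gate of the ring with MCM2, rose from 65.3, 66.9 and 70.01 CPM to 82.05, 87.4 and 86.6 in PA-1 (0.34 ± 0.059, adjusted p = 0.0031). It fell from 77.1, 76.5 and 72.8 to 58.95, 57.8 and 47.7 in SK-OV-3 (-0.45 ± 0.077, adjusted p = 0.0019), with SK-OV-3 BAY-850 replicate 3 the lowest. MCM2 rose from 87.4, 77.6 and 74.6 CPM to 101, 102 and 97.7 in PA-1 (0.33 ± 0.065, adjusted p = 0.008) and fell from 88.8, 86.1 and 84.5 to 64.9, 65.3 and 55.5 in SK-OV-3 (-0.47 ± 0.068, adjusted p = 5.8e-04). For both genes every treated library lay outside the range of its DMSO libraries. The responses differed by -0.80 ± 0.10 for MCM5 (adjusted p = 1.0e-04) and -0.81 ± 0.10 for MCM2 (adjusted p = 7.9e-05).

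MCM6, which binds CDT1 during loading, had the largest decrease of the 6 in SK-OV-3, from 69.3, 74.5 and 77.2 CPM to 46.5, 48.4 and 39.7 (-0.71 ± 0.077, adjusted p = 8.3e-05). In PA-1 it had 97.8, 91.9 and 88.5 CPM under DMSO and 102, 105 and 101 with BAY-850, which did not overlap but did not pass (0.15 ± 0.058, adjusted p = 0.13). MCM7 rose from 156, 152 and 160.4 CPM to 182, 181 and 185 in PA-1 (0.23 ± 0.053, adjusted p = 0.019) and fell from 86.2, 87.8 and 83.7 to 64.9, 62.7 and 53.4 in SK-OV-3 (-0.50 ± 0.071, adjusted p = 5.6e-04). MCM7 shares 8.94% of its exon length with AP4M1 on the opposite strand, and its expected counts were not whole in 42% of libraries. The responses differed by -0.86 ± 0.10 for MCM6 (adjusted p = 4.7e-05) and -0.74 ± 0.089 for MCM7 (adjusted p = 6.0e-05). MCM3 changed by 0.17 ± 0.054 in PA-1 (adjusted p = 0.067), where DESeq2 called it higher, and fell by 0.43 in SK-OV-3 (adjusted p = 0.0017).

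**Figure D2:**
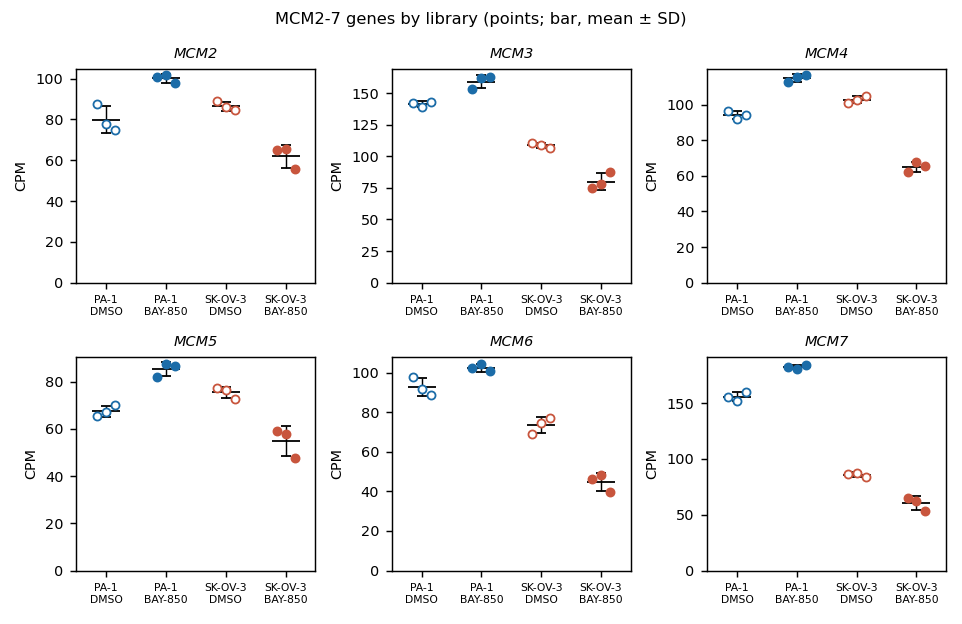
TMM-normalized CPM of the 6 MCM2-7 genes (y axis, from 0) in each library of the 4 groups (x axis), with points for libraries and black bars for the mean ± SD of 3. In every panel the treated PA-1 libraries lie above and the treated SK-OV-3 libraries below the DMSO libraries of their line, and MCM4 falls in SK-OV-3 to 62.2, 68.0 and 65.3 CPM.

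The calls in PA-1 were less stable than those in SK-OV-3. Of the 10 genes called in PA-1, 3 (MCM5, POLE and UHRF1) passed under every alternative and with each library left out, and of the 29 called in SK-OV-3, 22 did. Without PA-1 DMSO replicate 2, 3 genes were called higher in PA-1 and 0 lower, and MCM2 (adjusted p = 0.058) and MCM4 (adjusted p = 0.051) no longer passed. MCM7 no longer passed without PA-1 DMSO replicate 1, PA-1 DMSO replicate 2 or PA-1 BAY-850 replicate 2 (adjusted p = 0.069, 0.11 and 0.080). No call of either line changed its direction.

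None of the ORC genes passed in SK-OV-3 in the main test. Without SK-OV-3 BAY-850 replicate 3, ORC1, ORC3 and ORC6 were called lower there, as they were with all 12 libraries in 1 fit. ORC1 was also called lower with the GC trend removed (adjusted p = 0.040) and with library size without ribosomal RNA genes. ORC marks origins, and its 6 subunits had a median log2 fold change of -0.16 in SK-OV-3, where none was called by edgeR, DESeq2 or limma-voom. Of the 6, 4 had an unadjusted p under 0.05 in either direction, as had 5116 of all 15348 genes tested there. In PA-1 the median was -0.13 and 1 of the 6 was called. ORC4 had 96.4, 110.4 and 107 CPM under DMSO in PA-1 and 83.7, 82.9 and 91.4 with BAY-850 (-0.28 ± 0.067, adjusted p = 0.021). In SK-OV-3 it had 63.9, 61.5 and 63.6 and 69.7, 68.1 and 71.7 CPM (0.16 ± 0.061, adjusted p = 0.084). It was the only one of the 49 genes with a value above 0 in SK-OV-3, its groups did not overlap in either line, and its responses differed by 0.43 ± 0.087 (adjusted p = 0.0038). Its PA-1 call was lost without PA-1 DMSO replicate 2 or 3 or PA-1 BAY-850 replicate 1 or 2 (adjusted p = 0.12, 0.054, 0.064 and 0.12). The expected counts of ORC4 were not whole in any library, and its exons overlap those of ACVR2A and MBD5 on the opposite strand. ORC1, an ATPase subunit, had 10.5, 9.26 and 10.03 CPM and 7.43, 7.32 and 7.63 in SK-OV-3 (-0.40 ± 0.13, adjusted p = 0.053), which do not overlap and narrowly miss the threshold. Its responses differed by -0.48 ± 0.14 (adjusted p = 0.034), a call that held in 4 of the 12 fits with 1 library left out and had an adjusted p between 0.052 (without PA-1 BAY-850 replicate 2) and 0.10 (without PA-1 BAY-850 replicate 1) in the other 8. The values of ORC2, ORC3, ORC5 and ORC6 were -0.024, -0.26, -0.086 and -0.23 in SK-OV-3 and -0.0037, -0.15, -0.16 and -0.12 in PA-1 on the log2 scale. None of these passed in the main test.

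Among the licensing factors, CDC6, which loads MCM2-7 together with ORC, fell in SK-OV-3 from 40.4, 44.7 and 42.2 CPM to 29.2, 32.8 and 30.6 (-0.45 ± 0.077, adjusted p = 0.002) and had 0.047 ± 0.068 in PA-1 (adjusted p = 0.73). Its responses differed by -0.50 ± 0.10 (adjusted p = 0.0036). CDT1, the MCM2-7 carrier, had 91.1, 92.6 and 109 CPM in PA-1 under DMSO and 105, 124 and 133 with BAY-850 (0.31 ± 0.088, adjusted p = 0.047). This call rests on overlapping groups, and was lost without PA-1 DMSO replicate 1 or 2 or PA-1 BAY-850 replicate 2 or 3 (adjusted p = 0.17, 0.19, 0.16 and 0.12). In SK-OV-3 CDT1 had 35.3, 32.9 and 34.7 and 30.7, 30.1 and 26.4 CPM (-0.23 ± 0.08, adjusted p = 0.068), and its responses differed by -0.55 ± 0.13 (adjusted p = 0.011). GMNN, the inhibitor of CDT1, had -0.099 in SK-OV-3 and -0.20 in PA-1 and did not pass in either.

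The 2 genes of the DBF4-dependent kinase, which phosphorylates MCM2-7 to fire origins, were not called in SK-OV-3 by edgeR, DESeq2 or limma-voom. CDC7 had -0.42 ± 0.15 there (adjusted p = 0.065) and DBF4 -0.17 ± 0.10 (adjusted p = 0.26). CDC7 was near the threshold, and was called lower in SK-OV-3 with the GC trend removed (adjusted p = 0.049) and with all 12 libraries in 1 fit. It was also called lower without SK-OV-3 DMSO replicate 1 or without SK-OV-3 BAY-850 replicate 3. In PA-1 DBF4 fell from 42.9, 42.8 and 44.3 CPM to 36.8, 36.3 and 37.6 (-0.23 ± 0.063, adjusted p = 0.039), and CDC7 had -0.20 ± 0.074 (adjusted p = 0.12). The interaction of DBF4 was 0.045 ± 0.10 (adjusted p = 0.83), so no difference between the lines was detected for it. The PA-1 call of DBF4 held with PA-1 BAY-850 replicate 3 left out and was lost with any of the other 5 PA-1 libraries left out (adjusted p between 0.086 and 0.17). Without PA-1 DMSO replicate 3 it was 0.086, and without PA-1 BAY-850 replicate 2 it was 0.17.

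Of the 6 genes whose products complete or recruit the CMG helicase, 5 fell in SK-OV-3, with a median of -0.56, and none was called in PA-1 by edgeR (0 at an unadjusted p under 0.05), DESeq2 or limma-voom. CDC45 fell from 18.7, 21.5 and 17.9 CPM to 14.03, 11.9 and 9.59 (-0.70 ± 0.14, adjusted p = 0.0047). GINS2 (-0.66), GINS4 (-0.58), MCM10 (-0.53), a factor of helicase activation, and GINS1 (-0.36) fell too, with adjusted p of 0.0032, 0.0014, 0.0028 and 0.023. GINS3 had -0.25 ± 0.11 (adjusted p = 0.13). The same 5 genes were called in the interaction. GINS1 no longer passed in SK-OV-3 without SK-OV-3 DMSO replicate 1 or 3 or SK-OV-3 BAY-850 replicate 2 (adjusted p = 0.085, 0.077 and 0.095). The interaction calls of CDC45 and MCM10 held in 4 and 3 of the 12 fits with 1 library left out, with adjusted p up to 0.10 for CDC45 and 0.096 for MCM10 in the others.

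At the clamp, PCNA fell in SK-OV-3 from 132, 129 and 127 CPM to 88.7, 86.3 and 99.2 (-0.48 ± 0.069, adjusted p = 5.4e-04), or 28.5% less. In PA-1 PCNA had 70.5, 65.5 and 67.9 CPM and 67.8, 68.02 and 75.01 (0.051 ± 0.063, adjusted p = 0.68), and the groups overlap. Its responses differed by -0.55 ± 0.089 (adjusted p = 8.2e-04). Of the 5 RFC genes, which encode the clamp loader, RFC3 (-0.52), RFC4 (-0.37) and RFC5 (-0.30) fell in SK-OV-3 with adjusted p of 0.001, 0.0058 and 0.028. RFC1 (-0.12) and RFC2 (-0.21) did not pass. RFC5 no longer passed when any SK-OV-3 library other than BAY-850 replicate 3 was left out (adjusted p between 0.060 without DMSO replicate 3 and 0.12 without DMSO replicate 2). None of the 6 clamp and loader genes was called in PA-1 by edgeR (0 at an unadjusted p under 0.05), DESeq2 or limma-voom.

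The polymerases did not move alike. POLE, the catalytic subunit of the leading strand polymerase epsilon, had the largest increase of the 49 genes in PA-1, from 51.2, 51.96 and 56.3 CPM to 68.3, 76 and 68.01 (0.41 ± 0.067, adjusted p = 0.0017), or 33.2% more. In SK-OV-3 it fell from 55.9, 56.6 and 58.9 to 43.6, 43.04 and 38.4 (-0.44 ± 0.068, adjusted p = 8.9e-04). The groups did not overlap in either line, and the responses differed by -0.87 ± 0.098 (adjusted p = 3.2e-05). Its partner subunit POLE2 fell from 10.6, 10.2 and 9.98 CPM to 6.67, 6.13 and 5.38 in SK-OV-3 (-0.75 ± 0.14, adjusted p = 0.0031) and had -0.075 ± 0.093 in PA-1 (adjusted p = 0.68). Both polymerase epsilon genes among the 49 thus fell in SK-OV-3, and 1 of them, POLE, was called higher in PA-1. The subunit genes POLE3 and POLE4 are in the list of other replication genes. In SK-OV-3 POLE3 fell (-0.40 ± 0.055, adjusted p = 4.3e-04), and POLE4 had -0.21 ± 0.11 (adjusted p = 0.22).

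None of the 3 polymerase delta genes was called in SK-OV-3 by edgeR, DESeq2 or limma-voom, with 2 at an unadjusted p under 0.05. POLD1, the catalytic subunit of the lagging strand polymerase, rose in PA-1 from 75.1, 67.6 and 74.9 CPM to 85.7, 91.7 and 87.6 (0.29 ± 0.062, adjusted p = 0.013), a call lost without PA-1 DMSO replicate 2 (adjusted p = 0.090) or PA-1 BAY-850 replicate 2 (0.087). In SK-OV-3 it had 47.04, 41.5 and 43.3 and 40.5, 40.2 and 33.6 CPM, which do not overlap (-0.20 ± 0.084, adjusted p = 0.13). Its responses differed by -0.49 ± 0.11 (adjusted p = 0.0071). POLD2 had -0.072 and POLD3 -0.22 in SK-OV-3, and 0.12 and 0.021 in PA-1.

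In the polymerase alpha-primase complex, the catalytic subunit POLA1 and its partner POLA2 fell in SK-OV-3. POLA1 had 22.9, 24.9 and 24.6 CPM under DMSO and 18.8, 16.8 and 9.11 with BAY-850 (-0.69 ± 0.20, adjusted p = 0.031), where SK-OV-3 BAY-850 replicate 3 was far below the other treated libraries. The call of POLA1 was lost without SK-OV-3 DMSO replicate 1, 2 or 3 (adjusted p = 0.070, 0.11 and 0.097). Without SK-OV-3 BAY-850 replicate 3 its change was -0.44 ± 0.095 (adjusted p = 0.0052). POLA2 changed by -0.37 ± 0.091 (adjusted p = 0.014), a call lost without SK-OV-3 DMSO replicate 2 (adjusted p = 0.063). The primase genes PRIM1 and PRIM2 had -0.33 ± 0.12 and -0.14 ± 0.10 (adjusted p = 0.084 and 0.39). In PA-1 none of these 4 genes was called by any of the 3 tools, with 1 at an unadjusted p under 0.05, and their values ran from -0.09 for PRIM2 to 0.21 for POLA1.

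Replication protein A coats unwound strands, and of its 3 genes RPA1 fell in SK-OV-3 from 81.4, 77.7 and 79.99 CPM to 66.6, 72.3 and 62.5 (-0.24 ± 0.063, adjusted p = 0.022). RPA2 had -0.27 ± 0.088 (adjusted p = 0.053) and RPA3 -0.43 ± 0.18 (adjusted p = 0.11). RPA2 was near the threshold, and was called lower in SK-OV-3 by DESeq2 and with the GC trend removed (adjusted p = 0.045). It was also called lower with no filter, with at least 10 counts in every library and with library size without ribosomal RNA genes. The same held with all 12 libraries in 1 fit and without SK-OV-3 BAY-850 replicate 3. The RPA1 call was lost without SK-OV-3 DMSO replicate 2 or 3 or SK-OV-3 BAY-850 replicate 1 (adjusted p = 0.067, 0.076 and 0.078). None of the 3 was called in PA-1 by edgeR, DESeq2 or limma-voom, and their values were 0.14, -0.092 and -0.25. Of the 3, 2 had an unadjusted p under 0.05 in PA-1, as had 3618 of all 15212 genes tested.

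Both genes of Okazaki fragment maturation fell in SK-OV-3 and neither was called in PA-1 by edgeR (1 at an unadjusted p under 0.05), DESeq2 or limma-voom. LIG1, the ligase that seals the nicks, fell from 54.7, 55.99 and 54.2 CPM to 38.4, 39.4 and 37.5 in SK-OV-3 (-0.50 ± 0.063, adjusted p = 2.3e-04). In PA-1 LIG1 had 59.6, 58.6 and 60.6 and 66.99, 63.2 and 66.95 CPM, which do not overlap but did not pass (0.14 ± 0.059, adjusted p = 0.15). FEN1, the nuclease that removes flaps, fell from 78.3, 74.7 and 77.5 CPM to 48.5, 58.8 and 44.5 in SK-OV-3 (-0.59 ± 0.087, adjusted p = 6.7e-04). In PA-1 it had 41.4, 37.7 and 34.8 and 36.2, 33.3 and 34.2 CPM (-0.13 ± 0.075, adjusted p = 0.31), with overlap. The responses differed by -0.66 ± 0.077 for LIG1 (adjusted p = 4.3e-05) and -0.47 ± 0.13 for FEN1 (adjusted p = 0.024). The difference for FEN1 no longer passed without PA-1 DMSO replicate 2 or 3 or PA-1 BAY-850 replicate 1 (adjusted p = 0.054, 0.052 and 0.064).

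All 5 genes of nucleotide supply fell in SK-OV-3, with a median of -0.51, and none was called in PA-1 by edgeR, DESeq2 or limma-voom. In PA-1, 2 of the 5 had an unadjusted p under 0.05, as had 3618 of all 15212 genes tested. RRM2 (chr2:10120698-10131419 on GRCh38), the regulated small subunit of ribonucleotide reductase, had the largest decrease of the 49 genes, from 134, 126 and 129 CPM to 72.4, 73.4 and 69.9 (-0.84 ± 0.054, adjusted p = 1.5e-06), or 43.95% less. Its values in PA-1 were 29.2, 32.5 and 28.6 and 33.7, 35.4 and 32.1 CPM (0.16 ± 0.074, adjusted p = 0.19). The treated SK-OV-3 libraries were still above every PA-1 library, and the responses differed by -1.01 ± 0.089 (adjusted p = 2.7e-06). RRM1, the large subunit, fell from 101, 106 and 110.5 CPM to 75.4, 70.8 and 74.02 in SK-OV-3 (-0.51 ± 0.06, adjusted p = 1.5e-04), and had 113, 116 and 104 and 105, 107 and 100.4 CPM in PA-1 (-0.088 ± 0.06, adjusted p = 0.40).

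TYMS, the thymidylate synthase, fell from 156, 156 and 152 CPM to 107, 102 and 108 in SK-OV-3 (-0.54 ± 0.054, adjusted p = 4.6e-05), and had 172, 166 and 165 and 177, 169.9 and 171 CPM in PA-1 (0.045 ± 0.053, adjusted p = 0.66). Its exons share 39.1% of their length with ENOSF1 on the opposite strand and its expected counts were not whole in any library, so its level depends on how the reads were divided. TK1, thymidine kinase, and DUT, which removes dUTP, fell by 0.31 and 0.24 on the log2 scale in SK-OV-3 (adjusted p = 0.041 and 0.011), and had 0.24 and -0.094 in PA-1. The TK1 call was lost without SK-OV-3 DMSO replicate 1, 2 or 3 or SK-OV-3 BAY-850 replicate 2 (adjusted p = 0.12, 0.12, 0.069 and 0.050), and without SK-OV-3 BAY-850 replicate 3 its value was -0.20 (adjusted p = 0.049). The DUT call was lost without SK-OV-3 BAY-850 replicate 1 (adjusted p = 0.051). The responses differed by -0.43 ± 0.081 for RRM1 (adjusted p = 0.0023) and -0.60 ± 0.065 for TYMS (adjusted p = 2.3e-05).

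UHRF1 (chr19:4903080-4962154 on GRCh38), which reads hemimethylated DNA behind the fork and recruits the maintenance methyltransferase DNMT1, had the largest difference of response among the 49 genes (-1.06 ± 0.098, adjusted p = 5.2e-06). It rose from 28, 26.3 and 27.4 CPM to 35.8, 34.9 and 34.1 in PA-1 (0.36 ± 0.067, adjusted p = 0.0053) and fell from 50.4, 49.4 and 49.6 to 28.9, 29.5 and 33.5 in SK-OV-3 (-0.68 ± 0.082, adjusted p = 1.7e-04). No treated library overlapped its DMSO libraries. DNMT1 itself, from a list of other replication genes, moved in the same directions, with 0.31 ± 0.06 in PA-1 (adjusted p = 0.0066) and -0.45 ± 0.067 in SK-OV-3 (adjusted p = 6.9e-04).

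**Figure D3:**
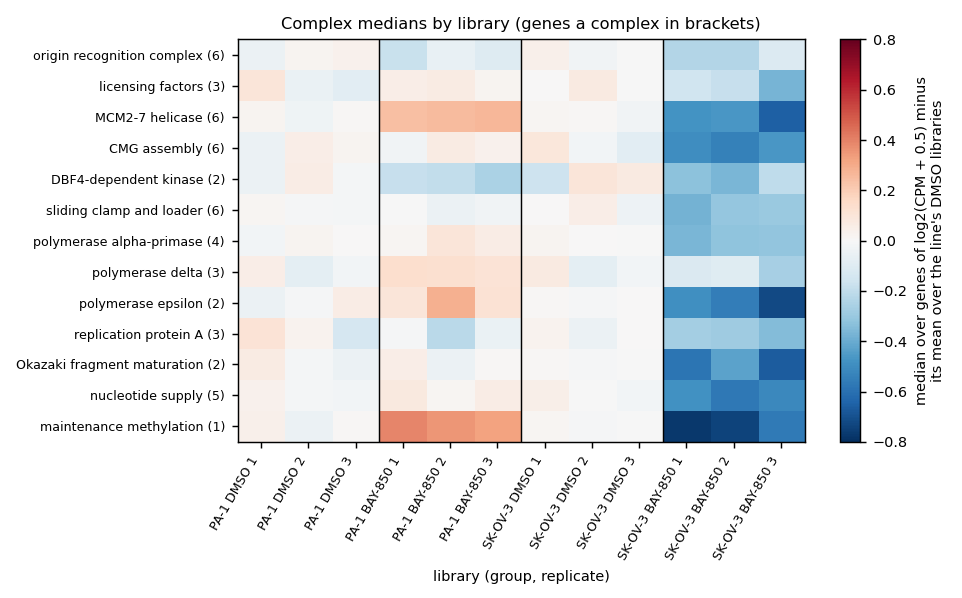
Median log2 deviation of the genes of each complex (rows, with the number of genes in brackets) in each of the 12 libraries (columns) from the DMSO mean of the line, in color from blue (lower) to red (higher). The 3 treated SK-OV-3 columns are blue in every row. The 3 treated PA-1 columns are reddest for UHRF1 (0.32 to 0.39), followed by the MCM2-7 genes (0.24 to 0.27) in replicates 1 and 3. In PA-1 BAY-850 replicate 2, polymerase epsilon (0.28) lies above the MCM2-7 genes (0.26).

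In PA-1 the responses moved with the GC content of the transcripts. The 8 genes called higher there had a GC content of 48.5% to 65.0% in their longest transcript (median 57.3%), the 2 called lower had 37.7% and 40.1%, and the 39 not called had a median of 45.3%. Across the 49 genes, which share the same 6 libraries, the log2 fold change and GC content had a Pearson r of 0.69 and a Spearman rho of 0.65 in PA-1, and -0.13 and -0.21 in SK-OV-3. All genes tested showed a trend of the same sign in PA-1 (Spearman rho 0.36 over 14308 genes with a GC content), with a median log2 fold change of -0.087 in the 4770 genes lowest in GC and 0.089 in the 4769 highest. In SK-OV-3 the rho over 14401 genes was 0.092.

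With each library's GC trend removed, 5 genes were called higher in PA-1 and 0 lower, against 8 and 2 before. MCM2 (0.26, adjusted p = 0.038), MCM4 (0.29, 0.0063), MCM5 (0.28, 0.012), POLE (0.36, 0.0061) and UHRF1 (0.31, 0.015) still passed. ORC4 (-0.15, adjusted p = 0.22), DBF4 (-0.13, 0.26), CDT1 (0.19, 0.18), MCM7 (0.16, 0.086) and POLD1 (0.17, 0.11) did not. In SK-OV-3, 35 genes were then called lower and 0 higher, and the interaction gave 32 below and 1 above. CDT1 (-0.32, adjusted p = 0.0064) and POLD1 (-0.29, 0.0081) were among the genes called lower in SK-OV-3 only after this step.

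**Figure D4:**
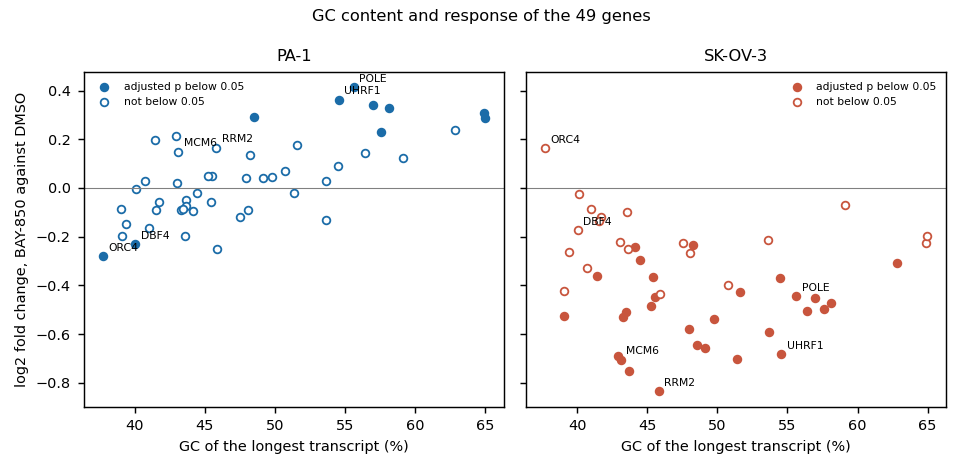
GC content of the longest transcript in percent (x axis) and log2 fold change with BAY-850 (y axis) of the 49 genes in PA-1 (left) and SK-OV-3 (right), with filled points for an adjusted p below 0.05. In PA-1 the points rise with GC (Spearman rho 0.65), and in SK-OV-3 the called genes span the range of GC (rho -0.21).

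The promoter words can be set beside the responses as a description. Of the 19 genes with an E2F word, 16 were called lower in SK-OV-3, and of the 24 without, 10 were. The median log2 fold changes were -0.48 and -0.24 in SK-OV-3 and 0.14 and -0.059 in PA-1. RRM2, with the largest decrease, was among the genes without such a word. With TTTCCCGC and TTTGGCGC as the only words, 17 genes had a match, 14 of them called lower in SK-OV-3, against 12 of the 26 without. The CCAAT box split the genes in the same direction, with 16 of the 23 with it called lower in SK-OV-3 and 10 of the 20 without. Their medians were -0.44 and -0.28 in SK-OV-3 and 0.051 and -0.067 in PA-1. For TTTGAA, 1 of the 2 genes with the word was called lower in SK-OV-3 and 25 of the 41 without.

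Under DMSO, 25 of the 49 genes were lower in SK-OV-3 than in PA-1 and 15 were higher. Of all 16070 genes tested 40.2% were lower and 40.1% higher, so calls between the lines were as common elsewhere. All 6 ORC genes, both kinase genes and all 3 RPA genes were lower in SK-OV-3. CDC7 had the largest difference (-2.21 ± 0.11, adjusted p = 8.4e-10), with 55.2, 63.9 and 55.8 CPM in PA-1 and 10.4, 13.6 and 13.8 in SK-OV-3. RRM2 had the largest in the other direction (2.099 ± 0.067, adjusted p = 1.3e-11), and FEN1 (1.01), GINS3 (0.98), CDC45 (0.96) and PCNA (0.92) were also higher in SK-OV-3.

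Levels between genes were compared as CPM per kilobase of exon. TYMS was highest in PA-1 under DMSO at 67.9 ± 1.48 (SD, n = 3), and PCNA in SK-OV-3 at 87.9 ± 1.63, against 46.2 ± 1.68 in PA-1. GINS3 was lowest in PA-1 at 1.74 ± 0.181, and the lowest in SK-OV-3, ORC1 and RPA3 at 3.15 ± 0.2 and 3.18 ± 0.735, differed by less than their spread. The MCM2-7 proteins act in equal numbers in the ring, and their RNA levels ranged from 9.19 ± 0.326 for MCM5 to 38.7 ± 0.634 for MCM3 in PA-1, a ratio of 4.21 ± 0.165, and from 10.3 ± 0.322 to 29.8 ± 0.548 in SK-OV-3, a ratio of 2.90 ± 0.105. With the longest transcript as the length the ratios were 3.45, with MCM7 highest, and 2.07, so their size depends on the gene models.

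**Figure D5:**
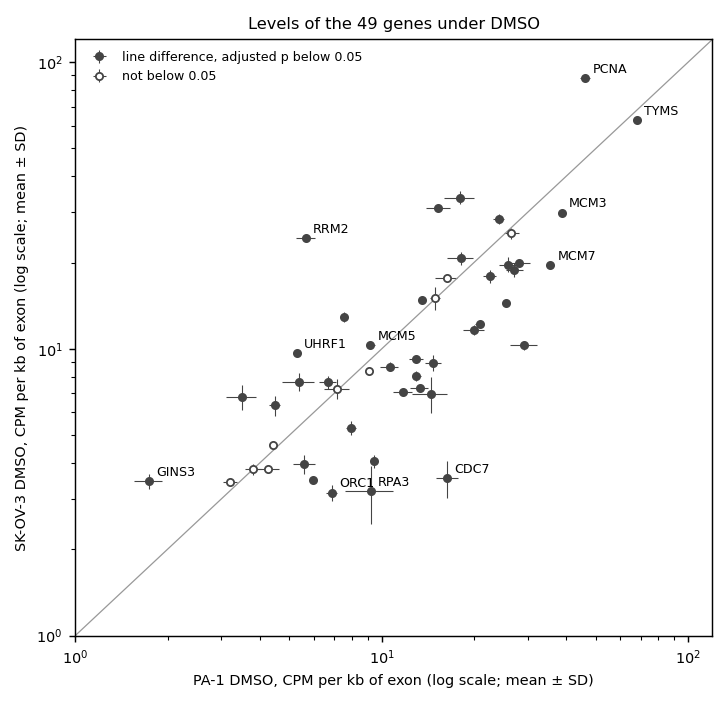
Mean ± SD (3 libraries) of CPM per kilobase of exon under DMSO in PA-1 (x axis) and SK-OV-3 (y axis), both log scales, for the 49 genes, with the line of equal levels; filled points differ between the lines at an adjusted p below 0.05. CDC7 lies farthest below the line and RRM2 farthest above it.

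Other genes of replication were taken from a list of 46 that covers origin firing, fork protection, further polymerase subunits, chromatin replication, further nucleotide enzymes and G1/S regulators. In SK-OV-3, 21 of the 46 were lower and 2 higher, with a median of -0.27, where 9.56% and 10.8% of all genes tested were called lower and higher. In PA-1 1 was lower and 2 higher, with a median of 0.011, which is near the 2.48% and 4.65% of all genes tested. The interaction was called below 0 for 14 and above 0 for 0, with edgeR, against 7.77% and 6.70% of all genes tested. E2F1, an activator of G1/S genes, fell in SK-OV-3 (-0.67 ± 0.075, adjusted p = 9.9e-05) and had -0.017 ± 0.09 in PA-1 (adjusted p = 0.94).

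The 2 genes of that list that rose in SK-OV-3, named here after their values were seen, were SAMHD1 (0.66 ± 0.082, adjusted p = 2.1e-04), an enzyme that breaks down deoxynucleotides, and POLD4 (0.31 ± 0.066, adjusted p = 0.0069), the smallest subunit of polymerase delta. SAMHD1 had 28.2, 29.7 and 31.1 CPM under DMSO and 49.3, 49.2 and 41.3 with BAY-850. In PA-1 the histone chaperone ASF1A fell (-0.30 ± 0.066, adjusted p = 0.013), and besides DNMT1 the gene called higher was TICRR (0.32 ± 0.091, adjusted p = 0.048), an origin firing factor also named after its value was seen. TICRR had -0.02 ± 0.12 in SK-OV-3 (adjusted p = 0.93).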

How the data were processed

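Gene expression was measured by RNA sequencing in 12 libraries. The authors deposited RSEM expected counts for 26475 gene symbols, not normalized between libraries. The submitters' processing notes name Bowtie2 2.1.0, RSEM 1.2.15 and hg38, and the annotation is not given in the sources used here. The sources describe both oligo-dT selection with strand-specific libraries and depletion of ribosomal RNA. RSEM divides reads that fit several genes, so values of overlapping genes are estimates.

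Expected counts were rounded, scaled by TMM and filtered with filterByExpr in edgeR 4.0.16 (R 4.3.3). BAY-850 was compared with DMSO in each line, and SK-OV-3 with PA-1 under DMSO, by the quasi-likelihood test, and the interaction was tested over all 12 libraries. P-values were adjusted by Benjamini-Hochberg over all genes tested, and called at 0.05. All 49 genes passed the filter in each comparison. Levels are TMM-normalized CPM over 12 libraries, and an SE is the log2 fold change divided by the square root of F. Library deviations used log2(CPM + 0.5). Positions, exon lengths and GC come from GENCODE on GRCh38, matched by symbol for 23900 genes and by current symbol for 26, with 2549 unmatched. Promoters come from RefSeq, without entries for MCM4, MCM5, GINS4, POLD3, RPA2 and RPA3. RefSeq starts can differ from GENCODE positions, and the printed RRM2 stretch lies inside the GENCODE position of RRM2. The scripts were tested on simulated data.

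Full statistics were given for the 12 genes with the smallest p in SK-OV-3, those called in PA-1 or in both lines, and the 6 with the smallest interaction p, and of the other list for genes called in both lines and the 2 smallest p a line. The genes and lists were chosen with earlier results of these data known. Alternatives were DESeq2 1.42.0, limma-voom (limma 3.58.1), RLE factors, library size only or without ribosomal RNA genes, no filter, at least 10 counts in every library, removal of GC trends (loess span 0.5), a replicate block, all 12 libraries in 1 fit, the longest transcript as length, and leaving out each library. Library totals of 34544481 to 51840249 counts limit the precision of low genes. A gene in the list of other replication genes is counted there but is not reported here by name.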

Additional observations from a re-analysis of the deposited data

Results flagged for a closer look

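The responses of the lines to BAY-850 differed by the interaction test of edgeR for 30 of the 49 genes below 0 and for 1 above 0. These are differences between SK-OV-3 and PA-1 log2 fold changes at an adjusted p under 0.05. For the MCM2-7 genes with full statistics they were -0.81 for MCM2, -0.95 for MCM4, -0.80 for MCM5, -0.86 for MCM6 and -0.74 for MCM7. UHRF1 (-1.06) and RRM2 (-1.01) had the largest differences. Among the polymerase genes the differences called were -0.91 for POLA1, -0.87 for POLE, -0.69 for POLE2, -0.49 for POLD1 and -0.47 for POLA2, and that of POLA1 was lost without PA-1 DMSO replicate 3, PA-1 BAY-850 replicate 1 or SK-OV-3 DMSO replicate 2 (adjusted p = 0.052, 0.066 and 0.051). LIG1 differed by -0.66, TYMS by -0.60, PCNA by -0.55, CDT1 by -0.55, FEN1 by -0.47 and RRM1 by -0.43. ORC4 was the gene with a difference above 0, at 0.43. MCM2, MCM4, MCM5, MCM7, POLE and UHRF1 were called in both lines, with opposite signs.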

How the results depend on the processing

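No called gene changed sign in any setting. The counts in SK-OV-3 stayed within 1.5 times of 29 lower, from 24 without SK-OV-3 DMSO replicate 2 to 37 without SK-OV-3 BAY-850 replicate 3, with 0 higher throughout, and the median ran from -0.41 to -0.35 with 1 library left out. In PA-1 the 2 lower calls became 1 with library size only, with the replicate block and with all 12 libraries in 1 fit, and 0 with the GC trend removed. The 8 higher calls became 3 with library size only and 5 with the GC trend removed. With 1 library left out, PA-1 gave 0 to 2 lower and 3 to 8 higher, and a median from 0.013 to 0.041. The PA-1 median was -0.0097 with library size only and 0.0087 without ribosomal RNA genes. The interaction gave 24 to 30 genes below 0 and 1 above with 1 library left out, with a median from -0.47 to -0.43, and medians of -0.42 with library size only, -0.45 without ribosomal RNA genes and -0.46 with at least 10 counts in every library. The interaction of DBF4, not called, turned to -0.032 (adjusted p = 0.88) with the GC trend removed. Under DMSO, 24 to 25 genes were lower and 11 to 14 higher in SK-OV-3 with 1 library left out. The per-length MCM2-7 ratio was 3.45 in PA-1 and 2.07 in SK-OV-3 by the longest transcript.

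Deviations of same-numbered libraries had correlations between -0.053 and 0.050, and those of differently numbered libraries between -0.13 and 0.11. No shared shift by replicate number was seen, and whether libraries were prepared in pairs cannot be told from these values. With the replicate block, PA-1 gave 1 lower and 8 higher, SK-OV-3 29 lower and 0 higher, the interaction 27 below and 1 above, and the DMSO comparison 25 lower and 15 higher. With 3 libraries a group, the p-values rest on the spread between these cultures.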
